A study of Rattus norvegicus with 42 samples.

Results

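The genes described here act in the endoplasmic reticulum (ER) and integrated stress responses, and were followed in rat pituitary cells with and without the long non-coding RNA Neat1. They were chosen by name, with 6 Ensembl identifiers given in advance, and 5 of these were among the 13776 genes of the count tables: Atf4 (ENSRNOG00000017801), Ddit3 (ENSRNOG00000006789), Trib3 (ENSRNOG00000007319), Xbp1 (ENSRNOG00000010298) and Hspa5 (ENSRNOG00000018294). Atf3 (ENSRNOG00000003745) was dropped, as its identifier was not among them, and is not analysed here.

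The cells were GH4C1, an established rat line of the somatolactotroph lineage, which makes growth hormone and prolactin. Wild-type cells (WT) carried no edit and received no treatment, and knockout cells (KO) were labelled Neat1 -/-, made with CRISPR-Cas9. Both were moved to fresh Ham F10 medium with horse and fetal calf serum as a means of synchronisation, and total RNA was taken every 4 h from 10 h (ZT10) to 34 h (ZT34) after that change. Each of the 7 times had 3 replicates per genotype, which gave 14 groups and 42 RNA-seq libraries. The labels do not say whether the KO cells were 1 clone, and an effect of losing Neat1 cannot be told apart from a difference between the cell preparations.

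In the integrated stress response, kinases that sense amino acid shortage, misfolded ER proteins and other stresses phosphorylate the translation factor eIF2alpha. General translation then slows while the transcription factor ATF4 is translated better, and ATF4 raises genes such as Ddit3, which encodes the transcription factor CHOP, and Trib3, a pseudokinase known to restrain ATF4 and CHOP. In the unfolded protein response of the ER, the sensors ATF6 and IRE1 raise chaperones such as BiP, the product of Hspa5, and IRE1 splices the Xbp1 transcript into the form that encodes an active factor. Secretory cells such as those of the pituitary depend on these pathways to fold their hormones. A count per gene does not separate spliced from unspliced Xbp1, and it does not measure translation of Atf4.

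The 5 genes fell into 3 patterns. Atf4, Ddit3 and Trib3 kept a narrow range in KO from ZT10 to ZT22 and were far higher at ZT30 and ZT34, with Trib3 reaching 7.05 times its ZT22 mean at ZT34. Xbp1 was higher in KO than in WT at each of the 7 times, by 1.77-fold to 2.16-fold. Hspa5 was lower in KO than in WT from ZT10 to ZT30 and in KO stood at 0.832 times its ZT22 mean at ZT30, when the first 3 genes were at 2.61 to 5.84 times theirs. By ZT34 Hspa5 was higher in KO than in WT, a call lost when scaled by library totals. In WT the first 3 genes were also higher at ZT34 than at ZT10, at smaller sizes.

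Promoters are shown as a description, and a link between their sequences and the time courses was not tested. They are the 250 bases before each gene's start, on the gene's strand, from RefSeq on the GRCr8 assembly. All 5 genes matched an entry. Coordinates are chr7:113684431-113684680 (plus strand) for Atf4, chr7:65001445-65001694 (plus) for Ddit3, chr3:161275534-161275783 (minus) for Trib3, chr14:84604373-84604622 (plus) for Xbp1 and chr3:38452766-38453015 (plus) for Hspa5. Capitals mark matches to the motifs named after the sequences.
Atf4: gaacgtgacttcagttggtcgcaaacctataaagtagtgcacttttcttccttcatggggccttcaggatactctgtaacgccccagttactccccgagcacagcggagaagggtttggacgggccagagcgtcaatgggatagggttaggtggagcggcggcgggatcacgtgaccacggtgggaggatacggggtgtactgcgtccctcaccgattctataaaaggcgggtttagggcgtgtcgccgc
Ddit3: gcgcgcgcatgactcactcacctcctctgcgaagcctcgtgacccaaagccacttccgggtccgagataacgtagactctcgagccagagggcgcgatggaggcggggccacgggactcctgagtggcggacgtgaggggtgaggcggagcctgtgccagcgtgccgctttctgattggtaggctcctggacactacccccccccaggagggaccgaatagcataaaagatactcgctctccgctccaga
Trib3: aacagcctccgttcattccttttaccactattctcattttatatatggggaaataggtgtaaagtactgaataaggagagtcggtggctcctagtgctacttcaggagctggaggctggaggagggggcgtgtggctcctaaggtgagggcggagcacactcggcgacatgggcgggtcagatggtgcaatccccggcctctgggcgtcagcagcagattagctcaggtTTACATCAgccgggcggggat
Xbp1: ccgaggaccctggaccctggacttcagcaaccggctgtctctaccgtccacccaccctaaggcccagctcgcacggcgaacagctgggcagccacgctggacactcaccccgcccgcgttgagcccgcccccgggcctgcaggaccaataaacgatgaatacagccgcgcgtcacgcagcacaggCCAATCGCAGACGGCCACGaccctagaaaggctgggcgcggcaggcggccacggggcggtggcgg
Hspa5: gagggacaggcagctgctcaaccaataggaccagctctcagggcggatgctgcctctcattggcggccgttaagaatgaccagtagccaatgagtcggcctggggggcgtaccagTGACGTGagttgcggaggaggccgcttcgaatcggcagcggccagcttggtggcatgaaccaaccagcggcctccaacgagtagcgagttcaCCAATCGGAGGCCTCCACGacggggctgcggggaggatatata

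Searches for 5 motifs covered both strands of these 5 windows and of all 33469 RefSeq promoters of the same length. The ER stress response element, CCAAT and CCACG with any 9 bases between, known as a site of ATF6 with NF-Y, was found in 22 of all promoters (0.0657%). It lay in 2 of the 5 windows, at 43 to 25 bases before the start of Hspa5 and at 65 to 47 bases before the start of Xbp1. The core of the unfolded protein response element, TGACGTG, lay at 135 to 129 bases before the start of Hspa5 and was in 1.54% of all promoters. The amino acid response element TGATGNAA, known as a site of ATF4 with C/EBP proteins, lay on the reverse strand at 21 to 14 bases before the start of Trib3, and 3.4% of all promoters held it. The second form of the ER stress element, ATTGG and CCACG with any 1 base between (0.0418% of promoters), and the cyclic AMP response element TGACGTCA (1.59%) were in 0 of the 5 windows. None of the marked matches overlapped another. Atf4 and Ddit3 held 0 matches, which says only that these letters were not in these windows.

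Levels are given as CPM, the counts of a gene per 1000000 counts of its library after TMM scaling of the library totals. CPM is not corrected for gene length, so levels of different genes are not compared. Totals were 34.5 to 68.8 M counts per library (M, 1000000) in WT (median 44.0) and 45.9 to 60.5 M in KO (median 51.2), and the 5 genes had at least 1166 counts in each library. At ZT34, WT replicate 1 stood apart from the other WT replicates, with a chi-square per degree of freedom of 391 and 711 against them, where the other 40 replicate pairs of the study had 5.6 to 56.5. Comparisons that use that library at ZT34, and calls that changed without it, are also given without it. The tables pair identifiers with no symbols, so symbols are those given with the 5 identifiers. Whether reads shared with near-identical copies of a gene were counted is not given in the sources used here. Neat1 itself, pituitary markers and the wider list of stress-pathway genes were not analysed here, and genotype labels were used as given. In RNA from whole cultures, a change in the share of responding cells and a change in RNA per cell cannot be told apart.

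KO was compared with WT by edgeR's quasi-likelihood F test, with Benjamini-Hochberg adjustment over all 13776 genes and a call at an adjusted p under 0.05. Standard errors (SE) are on the log2 scale, and WT is the reference. The labels do not say that replicates were separate cultures, so p-values measure the spread between these libraries only. Over all times, 4 of the 5 passed, where 88.1% of all genes did. In KO, 3 of them were higher, against 43.4% of all genes, and 1 was lower, against 44.7%. The median difference of the 5 was 0.72 on the log2 scale and that of all genes was -0.01. Of the called genes 49.2% were higher in KO, and 31.7% when scaled by library totals in place of TMM, which moved the median of all genes to -0.31. Without regard to sign and under TMM, the median was 0.72 for the 5 and 0.46 for all genes. From ZT10 to ZT34 this unsigned median was 0.69, 0.49, 0.47, 0.51, 1.01, 1.45 and 0.91 for the 5. For all genes it was 0.48, 0.50, 0.47, 0.50, 0.49, 0.53 and 0.40. By time, 4, 5, 5, 5, 4, 5 and 5 of the 5 genes were called from ZT10 to ZT34, against 69.6%, 70.9%, 68.9%, 70.5%, 70.3%, 73% and 60.7% of all genes. Without WT replicate 1 of ZT34, 5 of the 5 genes were called at ZT34, and 10421 of all genes in place of 8358. With so many genes different between the genotypes, these counts are near the background.

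**Figure D1:**
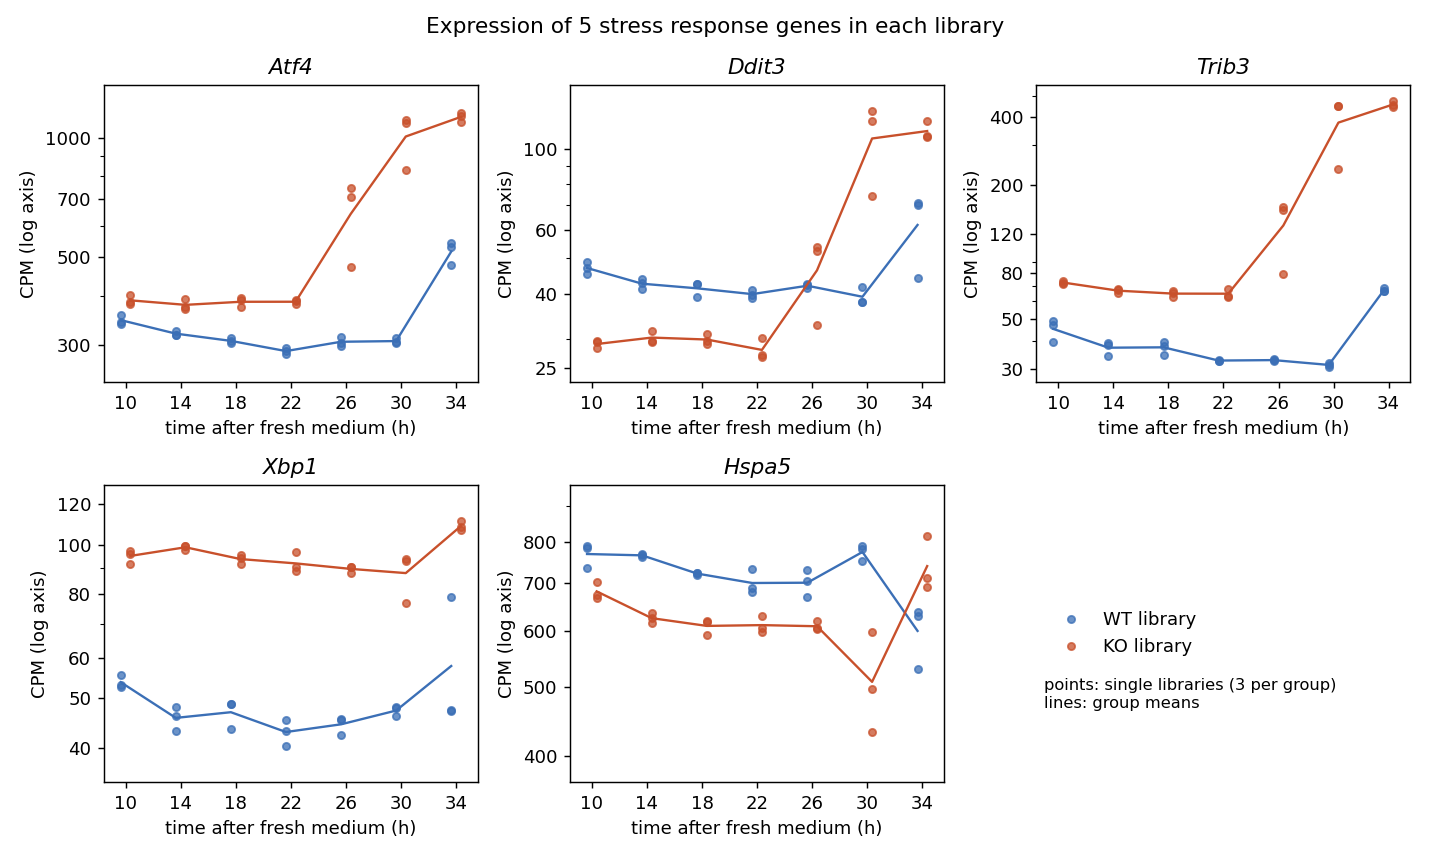
Level of each gene in CPM (vertical axis, log scale, its own range for each gene) against hours after fresh medium (horizontal axis), with 1 point per library and a line through the mean of 3 replicates, for WT and KO. Atf4, Ddit3 and Trib3 climb in KO after ZT22, Xbp1 lies higher in KO throughout, and Hspa5 in KO dips at ZT30.

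Trib3 was higher in KO at each time, and its fold change from ZT10 to ZT34 in KO was the largest of the 5 genes. From ZT10 to ZT22 its 12 KO libraries held 62.9 to 74.3 CPM and the 12 WT libraries 32.4 to 49.0 CPM. At ZT26 the KO replicates held 154, 79.8 and 159 CPM, at ZT30 they held 236, 451 and 450 CPM, and at ZT34 they held 453, 446 and 474 CPM. WT held 33.0, 32.3 and 32.9 CPM at ZT26, and 30.6, 31.0 and 31.9 CPM at ZT30. At ZT34 WT held 66.6, 66.8 and 68.6 CPM. Every KO library from ZT26 on lay above all KO libraries of ZT10 to ZT22. WT and KO did not overlap at any time, and the early KO libraries overlapped only the WT libraries of ZT34. How many of all genes separated across times in that way was not counted. KO means were 64.9 ± 2.83 CPM at ZT22, 131 ± 44.6 at ZT26, 379 ± 124 at ZT30 and 458 ± 14.3 at ZT34 (SD, n = 3). The difference from WT was 0.69 on the log2 scale at ZT10 (SE 0.17, adjusted p 0.000507) and 0.99 at ZT22 (SE 0.17, adjusted p 5.01e-06). It was 2.00 at ZT26 (SE 0.17, adjusted p 1.05e-11), 3.60 at ZT30 (SE 0.18, adjusted p 3.23e-17) and 2.77 at ZT34 (SE 0.17, adjusted p 9.13e-15). As folds, those last 2 differences were 12.2 and 6.80. Leaving out WT replicate 1 of ZT34 gave 2.76 at ZT34. Scaled by library totals it was 0.37 at ZT10 (adjusted p 0.0476), 0.54 at ZT14, 0.50 at ZT18 and 0.68 at ZT22, all called, and 1.69, 3.34 and 2.50 at the last 3 times.

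Atf4, the transcription factor at the head of this branch, differed little between the genotypes at first. At ZT10 the KO replicates held 386, 380 and 402 CPM and the WT replicates 359, 340 and 343 CPM, which did not overlap. That difference of 0.17 on the log2 scale did not pass the test (SE 0.10, adjusted p 0.126). It passed with only the 6 libraries of ZT10 in the fit (adjusted p 0.00707). Without KO replicate 2, at ZT26 only or at every time, it also passed (adjusted p 0.0249 and 0.0396). From ZT14 to ZT22 Atf4 was higher in KO by 0.24 to 0.41, and its 12 KO libraries of ZT10 to ZT22 spanned only 370 to 402 CPM. At ZT26 the KO replicates held 708, 472 and 748 CPM, at ZT30 they held 828, 1086 and 1106 CPM, and at ZT34 they held 1151, 1097 and 1136 CPM. In WT, Atf4 held 299.5 to 314 CPM at ZT26, 304 to 312 CPM at ZT30, and 477, 530 and 543 CPM at ZT34. KO libraries lay above all WT libraries of the same time at each of the 7 times. The difference was 1.07 at ZT26 (SE 0.10, adjusted p 4.63e-11), 1.71 at ZT30 (SE 0.10, adjusted p 1.13e-15) and 1.13 at ZT34 (SE 0.10, adjusted p 1.69e-11). Scaled by library totals, Atf4 was at -0.15 at ZT10, -0.07 at ZT14, 0.03 at ZT18 and 0.10 at ZT22, with 0 of these 4 called. The later 3 differences were called under both scalings. At ZT14 the call was lost without any 1 of the WT replicates or without KO replicate 3 (adjusted p 0.0689 to 0.132). Leaving out WT replicate 1 of ZT34 gave 1.07 at ZT34.

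Ddit3, which encodes CHOP, was lower in KO than in WT at the first 4 times and higher at the last 2. From ZT10 to ZT22 its 12 KO libraries held 26.8 to 31.6 CPM and the 12 WT libraries 38.8 to 48.8 CPM, with no overlap. The share of all genes that separated over these 4 times together was not counted. It was lower in KO by -0.69 at ZT10 (SE 0.15, adjusted p 0.000161), and by -0.49, -0.47 and -0.51 at the next 3 times, all called. At ZT26 the KO replicates held 53.7, 32.9 and 52.5 CPM against 41.3, 42.2 and 42.6 CPM in WT. Of the 5 genes and 7 times, this was the only gene and time at which the genotypes overlapped, and the difference of 0.14 was not called (SE 0.15, adjusted p 0.405). Without KO replicate 2 of ZT26, a choice made after seeing the data, it was 0.34 (adjusted p 0.0392). At ZT30 the KO replicates held 74.1, 119 and 127 CPM and WT held 37.9, 37.9 and 41.8 CPM. At ZT34 KO held 108, 109 and 120 CPM and WT held 44.1, 70.1 and 71.1 CPM. Ddit3 was then higher in KO, by 1.45 at ZT30 (SE 0.15, adjusted p 8.31e-10) and 0.86 at ZT34 (SE 0.15, adjusted p 1.02e-05). Without WT replicate 1 of ZT34, the last was 0.67 (adjusted p 5.67e-05). Averaged over all times its difference was 0.04 (SE 0.06, adjusted p 0.503), the only one of the 5 not called in that comparison. Scaled by library totals it was -0.26 and called (adjusted p 9.16e-05), and at ZT26 it was -0.18 (adjusted p 0.284).

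**Figure D2:**
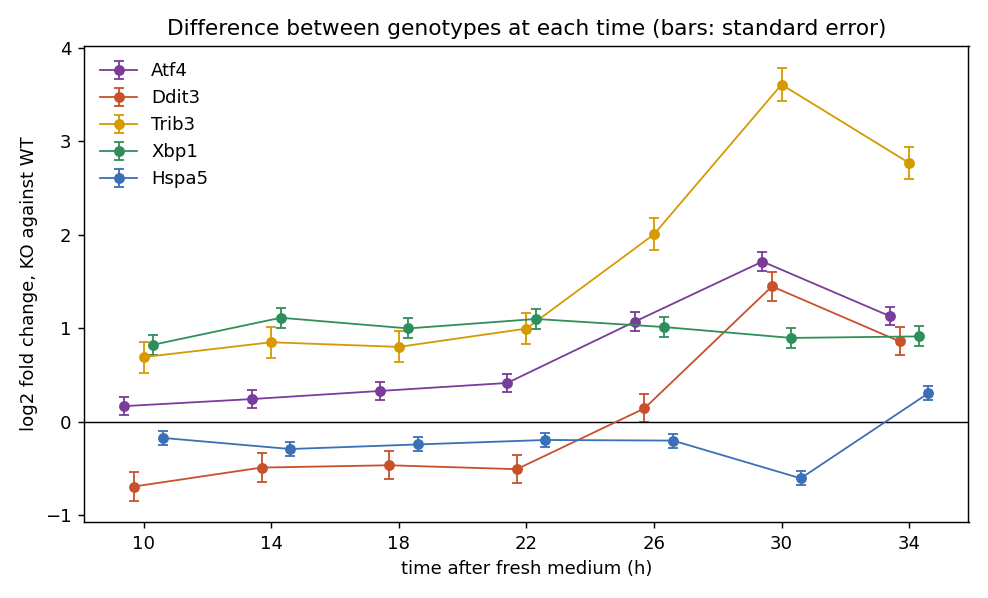
Log2 fold change of KO against WT (vertical axis, 0 means no difference) at each time in hours after fresh medium (horizontal axis) for the 5 genes, with bars of 1 SE from the edgeR fit. Trib3, Atf4 and Ddit3 peak at ZT30, at 3.60, 1.71 and 1.45, where Hspa5 is at its lowest, -0.61, and Xbp1 stays between 0.82 and 1.11.

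Libraries of KO and WT did not overlap for 5 of the 5 genes at each time but ZT26, where 4 did not. Over all genes this held for 78.7%, 77.9%, 78.1%, 80.7%, 80.8%, 77.2% and 45% from ZT10 to ZT34, so separation of 3 against 3 libraries was common in these data. The 45% at ZT34 includes WT replicate 1, and the share without it was not counted. A comparison within KO separated fewer genes. All 3 KO libraries of ZT26 lay above all 12 KO libraries of ZT10 to ZT22 in 5.06% of all genes, and in 3 of the 5 here, Atf4, Ddit3 and Trib3. At ZT30 it was 9.99% of all genes and the same 3 genes. At ZT34 it was 20.8% of all genes, and Xbp1 joined them. In WT the matching shares were 2.67% at ZT26 and 3.61% at ZT30, with 0 of the 5 genes.

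KO libraries differed within a time, and in the same replicates for all 3 genes. At ZT26, replicate 2 was the lowest for Trib3, Atf4 and Ddit3. At ZT30, replicate 1 was the lowest for all 3. The chi-square per degree of freedom over all genes was 24.4 and 22.01 for ZT26 replicate 2 against replicates 1 and 3, which differed from each other by 8.50. For ZT30 replicate 1 it was 56.5 and 40.1, and replicates 2 and 3 differed from each other by 12.5. At ZT34 the 3 KO replicates lay between 446 and 474 CPM for Trib3, although over all genes replicate 1 differed from replicates 2 and 3 by 33.8 and 27.6, and those from each other by 10.3. Relative to each gene's own ZT22 mean, the KO means stood at 2.02, 5.84 and 7.05 times for Trib3 at ZT26, ZT30 and ZT34. For Ddit3 these ratios were 1.65, 3.81 and 4.00, and for Atf4 1.66, 2.61 and 2.92.

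**Figure D3:**
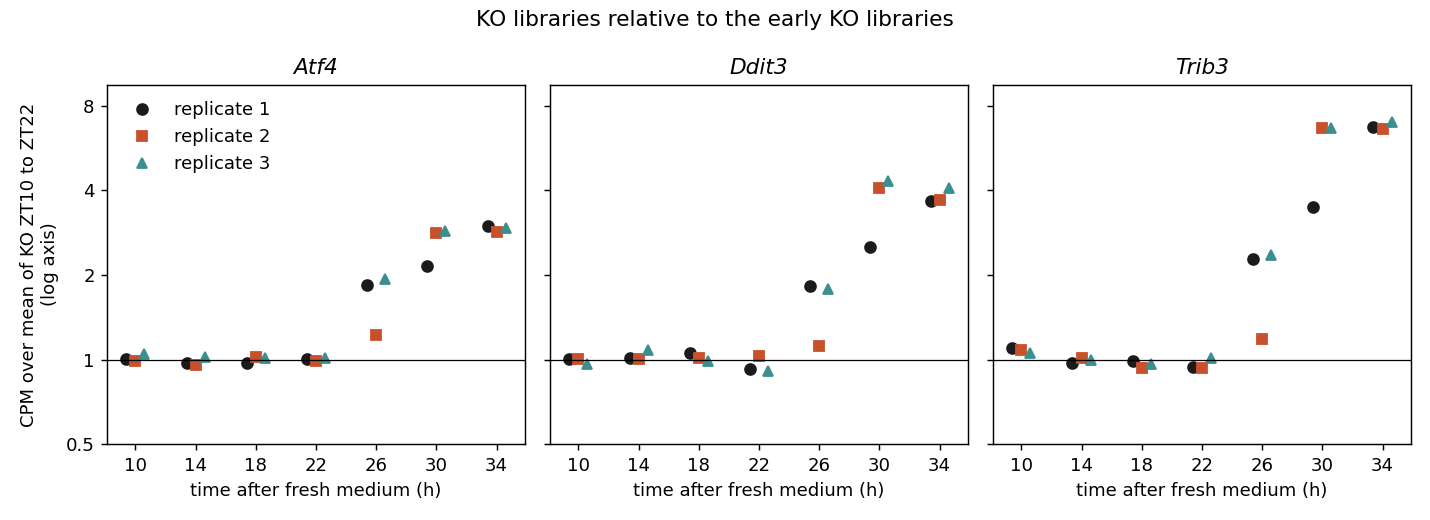
Each KO library for Atf4, Ddit3 and Trib3 from ZT10 to ZT34 (horizontal axis, hours after fresh medium) as a ratio to the mean of that gene's 12 KO libraries of ZT10 to ZT22 (vertical axis, log scale), with 1 point per replicate. Trib3, Ddit3 and Atf4 leave a ratio of 1 at ZT26, with replicate 2 of ZT26 and replicate 1 of ZT30 below the other replicates of their time in all 3 genes.

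Xbp1, whose spliced transcript encodes a factor that raises ER folding and degradation genes, was higher in KO at every time. From ZT10 to ZT30 the 18 WT libraries held 40.3 to 55.7 CPM and the 18 KO libraries 76.9 to 99.5 CPM. At ZT34 KO held 111, 107 and 108 CPM and WT held 78.8, 47.3 and 47.4 CPM. The WT library at 78.8 CPM is replicate 1, the one that stood apart, and it lay above the lowest KO library of ZT30. Over all 21 libraries of each genotype the ranges overlapped because of that library. Without it, Xbp1 did not overlap, like 41.3% of all genes (17.4% with it). The difference over all times was 0.98 (SE 0.04, adjusted p 8.29e-21), and 1.02 without that library. By time it lay between 0.82 at ZT10 and 1.11 at ZT14, and was called at each. At ZT34 it was 0.91, or 1.20 without that library. Scaled by library totals it was 0.51 to 0.80 and was still called at each time.

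Hspa5, the gene of the ER chaperone BiP, was lower in KO at 6 of the 7 times. From ZT10 to ZT26 the differences lay between -0.17 at ZT10 (SE 0.07, adjusted p 0.0376) and -0.29 at ZT14 (SE 0.07, adjusted p 0.000872). At ZT10 the call was lost without WT replicate 2 or 3 or any 1 of the KO replicates (adjusted p 0.0553 to 0.104). It was also lost at ZT22 without WT replicate 3 or KO replicate 2 (0.0750 and 0.0639) and at ZT26 without WT replicate 3 (0.0579). Scaled by library totals the differences were -0.49 at ZT10 and -0.60 at ZT14, and were called. The 12 WT libraries of ZT10 to ZT22 held 680 to 789 CPM and the 12 KO libraries 592 to 704 CPM. These 2 ranges overlapped, but within each time the libraries did not. At ZT30 KO held 597, 497 and 432 CPM against 752, 789 and 783 CPM in WT, the widest gap of the series for this gene (-0.61, SE 0.07, adjusted p 2.07e-08). KO replicate 1, which was the lowest of its time for Trib3, Atf4 and Ddit3, was the highest for Hspa5. At ZT34 KO held 691, 817 and 713 CPM and WT held 531, 639 and 630 CPM, and Hspa5 was higher in KO by 0.30 (SE 0.07, adjusted p 0.000796). Without WT replicate 1 of ZT34 this was 0.22 (adjusted p 0.00607), and scaled by library totals it was 0.04 (adjusted p 0.592).

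**Figure D4:**
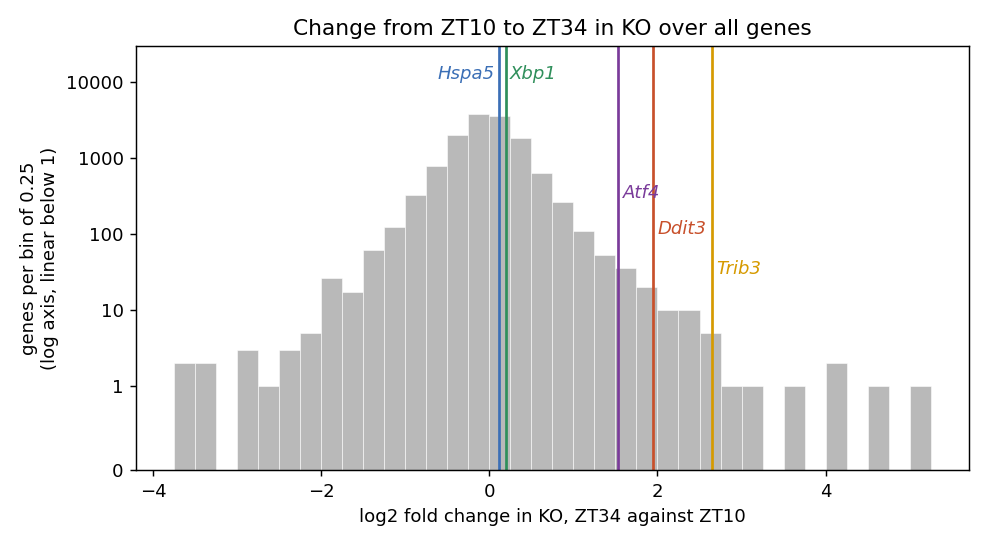
Number of genes in each bin of 0.25 (vertical axis, log scale that is linear below 1) by log2 fold change of ZT34 against ZT10 in KO (horizontal axis) for all 13776 genes, with lines at the 5 genes. Trib3 at 2.65, Ddit3 at 1.95 and Atf4 at 1.53 lie in the far right tail, and Xbp1 at 0.19 and Hspa5 at 0.12 lie near the centre.

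The times at both ends, ZT10 and ZT34, were compared within each genotype. In KO, 3 of the 5 genes were called, all higher at ZT34, where 34% of all genes were called and 16.5% were higher. Trib3 rose by 2.65 on the log2 scale (SE 0.17, adjusted p 5.53e-13), Ddit3 by 1.95 (SE 0.15, adjusted p 3.80e-11) and Atf4 by 1.53 (SE 0.10, adjusted p 5.00e-13). Ordered by fold change, Trib3 was the 8th of all genes, Ddit3 the 37th and Atf4 the 81st. Xbp1 at 0.19 (adjusted p 0.163) and Hspa5 at 0.12 (adjusted p 0.234) were not called. Without WT replicate 1 of ZT34, Xbp1 in KO was called at the same 0.19 (adjusted p 0.00349), as were 6969 of all genes in place of 4684. In WT, 4 of the 5 genes were called, 3 higher and 1 lower, against 37.9% of all genes, 22.9% higher and 15% lower.

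The 3 genes that rose late in KO were also higher at ZT34 than at ZT10 in WT, at smaller sizes. Atf4 was higher by 0.57 (SE 0.10, adjusted p 3.22e-05), Trib3 by 0.57 (SE 0.17, adjusted p 0.00689) and Ddit3 by 0.39 (SE 0.15, adjusted p 0.0368). For Atf4 and Trib3 all 3 WT libraries of ZT34 lay above all 18 earlier WT libraries, which 2.24% of all genes did. That share includes replicate 1 of ZT34, and the share without it was not counted. For Ddit3 replicates 2 and 3 did, at 70.1 and 71.1 CPM, and replicate 1, at 44.1 CPM, did not. Without replicate 1 the WT differences were 0.63 for Atf4, 0.58 for Trib3 and 0.58 for Ddit3 (adjusted p 8.20e-06, 0.0118 and 0.000956). Hspa5 moved the other way in WT and fell by 0.36 (SE 0.07, adjusted p 0.000390), or by 0.28 without replicate 1 (adjusted p 0.00280). Xbp1 was at 0.10 in WT (adjusted p 0.462) and, without replicate 1, at -0.18 (adjusted p 0.0214). Ddit3 was also not called without WT replicate 2 (adjusted p 0.266) or KO replicate 3 (adjusted p 0.0526). Without WT replicate 3 at every time, Ddit3 (0.25, adjusted p 0.350) and Trib3 (0.47, adjusted p 0.110) were not called, while Atf4 and Hspa5 were. With only the 6 WT libraries of these times in the fit, 0 of the 5 genes and 24 of all genes were called, and 1755 genes had an unadjusted p under 0.05.

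Tests over all 7 times in 1 genotype asked whether a gene changed at any time. In KO, 4 of the 5 genes changed, against 36.8% of all genes, and Xbp1 did not pass (adjusted p 0.216). Without WT replicate 1 of ZT34 Xbp1 passed as well (adjusted p 0.000196), as did 8346 of all genes in place of 5065. Of all 13776 genes ordered by p, Trib3 was the 1st (adjusted p 1.34e-16), Atf4 the 2nd (4.64e-16) and Ddit3 the 10th (1.63e-14). Over 14 alternatives in processing their places ranged from 1 to 4, 2 to 26 and 7 to 42. Hspa5 was called at an adjusted p of 3.31e-05 and stood at place 1494. In WT, 5 of the 5 genes changed, against 37.5% of all genes, from Atf4 (adjusted p 1.71e-07) to Xbp1 (adjusted p 0.0122). Ddit3 did not pass without WT replicate 2 or 3 (adjusted p 0.210 and 0.217), and Xbp1 did not pass without KO replicate 2 (adjusted p 0.0513).

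A fit to ZT10 to ZT22 only, chosen after seeing the data, gave another order. In KO 1 of the 5 genes changed, Hspa5 (adjusted p 0.0150), as did 577 of the 13772 genes tested. Trib3, Ddit3 and Atf4 had adjusted p of 0.248, 0.520 and 0.925. In WT 5 of the 5 changed over these 4 times, as did 3344 of the 13772 genes. WT Trib3 went from 46.9, 49.0 and 39.6 CPM at ZT10 to 32.5, 32.4 and 32.9 CPM at ZT22, and WT Atf4 from 359, 340 and 343 CPM to 290, 296 and 284 CPM. At ZT22 all 3 libraries of each gene lay below all 3 of ZT10, and the share of all genes that did so was not counted.

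The interaction of genotype and time, which tests whether the time course differed between KO and WT, was called for 4 of the 5 genes and for 39.3% of all genes. Adjusted p-values were 1.79e-11 for Trib3, 2.52e-10 for Atf4, 1.81e-09 for Ddit3 and 5.23e-06 for Hspa5, and 0.530 for Xbp1. Without WT replicate 1 of ZT34 the Xbp1 interaction was called (adjusted p 0.00241), as it was for 7441 of all genes in place of 5416. With ZT10 to ZT22 only, the interaction was called for Atf4 (adjusted p 0.00378) and Xbp1 (adjusted p 0.0134), and for 1954 of 13772 genes. It was not called for Trib3 (0.0790), Ddit3 (0.0692) or Hspa5 (0.299).

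A 24 h cosine was fitted in each genotype because the cells were synchronised. In KO it was called for 4 of the 5 genes and 34.6% of all genes. The amplitude, from mean to peak on the log2 scale, was 1.39 for Trib3 (adjusted p 0.00290), 0.96 for Ddit3 (adjusted p 0.00412), 0.75 for Atf4 (adjusted p 0.00414) and 0.10 for Xbp1 (adjusted p 0.0293). Fitted peaks of the first 3 lay 31.0, 30.8 and 30.4 h after fresh medium. Such a curve has the same height at ZT10 and ZT34, 24 h apart, whereas these 3 genes stood 2.65, 1.95 and 1.53 higher at ZT34, so the fit does not describe their course. Without KO replicate 2 the cosine was called for 0 of the 5 genes (Trib3 adjusted p 0.0577) and 37 of all genes. Without KO replicate 3 it was called for 0 of the 5 (Trib3 adjusted p 0.0896) and 0 of all genes. In WT it was called for Trib3 only of the 5 (amplitude 0.36, adjusted p 0.0459), against 1.81% of all genes. Without WT replicate 1, 2 or 3 it was called for 0 of the 5, and for 189, 0 and 0 of all genes. With only ZT34 replicate 1 left out it was called for 3 of the 5, Trib3, Atf4 and Xbp1, and for 1895 of all genes. The difference between the cosines was called for Trib3 (adjusted p 0.00530), Ddit3 (0.0122) and Atf4 (0.0221), and for 13.1% of all genes. It was called for Trib3 alone without any 1 of the WT replicates or without KO replicate 3. Over all genes it was then called for 2184, 661 and 538 without WT replicates 1, 2 and 3, and 486 without KO replicate 3.

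Ratios of counts within a library, which do not depend on the scaling of library totals, showed that the rising genes did not keep 1 proportion. For every 100 Atf4 counts there were 15.9 to 19.3 Trib3 counts in the KO libraries of ZT10 to ZT22, 16.9 to 21.8 at ZT26, 28.5 to 41.5 at ZT30 and 39.4 to 41.7 at ZT34. In WT the same ratio was 10.5 to 14.4 from ZT10 to ZT22 and 12.6 to 13.96 at ZT34, so WT and KO did not overlap in it at these times. For Ddit3 the order was the reverse, with 12.8 to 13.96 counts per 100 Atf4 counts in WT and 6.87 to 8.29 in KO from ZT10 to ZT22. It was 8.95 to 11.5 in KO at ZT30 and 9.36 to 10.5 at ZT34, below the early WT libraries. The WT libraries of ZT34 held 9.25, 13.2 and 13.1. Only replicate 1, at 9.25, the library that stood apart, kept WT and KO from separating at that time. Replicates 2 and 3 lay above all KO libraries of ZT34. Hspa5 counts per 100 Atf4 counts went from 154 to 185 in KO at ZT10 to ZT22 to 39.1 to 72.1 at ZT30, and from 205 to 258 in WT to 111 to 120 at ZT34.

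Likeness of time courses was measured as Pearson's r over the 14 group medians, centred within each genotype, among 9493 genes (a mean of at least 10 CPM over the 42 libraries). The groups share libraries across genes, so this describes and does not test. The gene most like Ddit3 was Trib3, with r = 0.995, and the gene most like Trib3 was Ddit3. Atf4 stood second in likeness to both, with r = 0.986 for Ddit3 and 0.982 for Trib3. The gene most like Atf4 was ENSRNOG00000010210, with r = 0.987. Xbp1 was most like ENSRNOG00000015019 (r = 0.838), and Hspa5 most like ENSRNOG00000028733 (r = 0.822). Without the groups of ZT34, over 12 medians, Ddit3 and Trib3 were again most like each other (r = 0.994) and Hspa5 kept its nearest gene. Other genes were then nearest to Atf4 and to Xbp1. Trib3 stood at place 5 and Ddit3 at place 6 for Atf4, and Atf4 at place 3 for Ddit3. Between Hspa5 and Xbp1 r was 0.55. Hspa5 had r of -0.31, -0.33 and -0.26 with Atf4, Ddit3 and Trib3, and -0.70, -0.76 and -0.71 without the groups of ZT34.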

How the data were processed

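The labels' protocols describe total RNA, column isolation and strand-specific paired reads of 150 bp from an Illumina HiSeq. The authors deposited whole-number counts for each gene and library, not normalized, in 1 table per genotype. Reads were counted with featureCounts, per the submitters' processing notes. Its version, the aligner, build, annotation and strand setting are not given in the sources used here. Every library column was matched to a sample by its label. Each of the 42 replicate pairs differed by more than sampling noise (chi-square per degree of freedom of 5.6 or more), so each library counted as 1 replicate.

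Tests used R 4.3.3 and edgeR 4.0.16 (TMM scaling, quasi-likelihood F test) on all 42 libraries, in a model of 14 group means. In that model all libraries shared a common estimate of the spread, so leaving out a WT library can alter p-values within KO. No low-count gene was lost, since filterByExpr took out 0. Benjamini-Hochberg adjustment covered 13776 genes, and calls were made under an adjusted p of 0.05. SE is the log2 fold change divided by the square root of F. A cosine and a sine with a period of 24 h were fitted to the 21 libraries of each genotype. The scripts were checked on simulated data. All members are named with their values, and beside each member the gene most like it is named. The reference table paired 0 identifiers with a symbol, so lists of pathway genes were not used. Members, lists, tests and alternatives were chosen with earlier results of these data known. Promoters came from RefSeq (GRCr8), without the 50 bases after each start. Alternatives were DESeq2 1.42.0, other scalings and filters, a replicate block, libraries left out, fewer libraries in the fit and other cosine fits. The smallest count of a member in a library was 1166, and each group had only 3 replicates, which limits precision.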

Additional observations from a re-analysis of the deposited data

Results flagged for a closer look

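The time courses of 4 genes differed between KO and WT by the interaction of genotype and time, which was called for 39.3% of all genes. Adjusted p-values from edgeR's quasi-likelihood test were 1.79e-11 for Trib3, 2.52e-10 for Atf4, 1.81e-09 for Ddit3 and 5.23e-06 for Hspa5. The fitted 24 h cosine differed between the genotypes for 3 of these, with adjusted p-values of 0.00530 for Trib3, 0.0122 for Ddit3 and 0.0221 for Atf4. That difference was called for 13.1% of all genes. Only Trib3 kept it without any 1 of the WT replicates or without KO replicate 3. As stated above, the cosine does not describe the course of these 3 genes in KO. At ZT30, where the genotypes were furthest apart for Trib3, Atf4, Ddit3 and Hspa5, KO replicate 1 lay between WT and the other KO replicates for each of these genes.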

How the results depend on the processing

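The other settings numbered 19, including the likeness without the groups of ZT34, which involved no fit. Over the rest, 1078 values for single genes kept their direction and side of the threshold, 55 lost a call, 19 gained one and 8 changed sign. Counts of members called stayed within 1.5 times in 216 cases and moved in 18. Dropping the filter on low counts altered no fit, since it removed 0 genes, and is not counted. Likeness between members moved by 0.1 or more for 7 of 10 pairs without the groups of ZT34. Scaled by library totals, which put 31.7% of called genes higher in KO in place of 49.2%, KO against WT turned for Ddit3 over all times (-0.26) and at ZT26 (-0.18), and for Atf4 at ZT10 (-0.15) and ZT14 (-0.068). With ZT10 to ZT22 only, Ddit3 was at -0.54, 1 member changed over time in KO and 2 had an interaction (577 and 1954 of 13772 genes). Leaving out replicates gave -0.00156 to 0.0694 for Ddit3 over all times and -0.20 to 0.24 for Xbp1 at ZT34 against ZT10 in WT, which was -0.18 without ZT34 replicate 1 alone. The members called at ZT34 against ZT10 in WT were then 2 to 5, and 0 with only its 6 libraries in the fit. The replicate block changed the member count for the cosine in WT only, to 0. Replicate numbers did not pair the libraries, as deviations of same-numbered libraries at a time correlated at -0.07 to 0.23 and 3 of 21 pairs were over 0.1.

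The cosine was the least stable test. In WT it was called for 2 members with a linear term, 4 without ZT34, 2 by DESeq2 and 0 to 3 with replicates left out. In KO 0 to 4 were called with replicates left out, and 1 to 3 for the difference. Over all genes the count in WT went from 250 to 0 without replicate 2 or 3 (1063 and 929 at an unadjusted p under 0.05) and to 3339 without ZT34, with 793 by DESeq2. In KO it went from 4766 to 0 without replicate 3 (3806 unadjusted). The difference ranged from 486 to 4173 around 1800. Calls over all genes also moved for change in KO (5065, from 577 to 8393), change in WT (5168, to 3344 with ZT10 to ZT22), the interaction (5416, down to 1954), ZT34 against ZT10 in KO (4684, from 2864 to 7207) and in WT (5225, to 24), and KO against WT at ZT34 (8358, to 3057 with 6 libraries). The cause of these shifts was not tested. Depth did not limit the members, which held 1166 to 63797 counts.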
